A study of Mus musculus with 16 samples.

Results

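The G2 and mitosis genes described here are 43 genes for mitotic cyclins, kinases, spindle, kinetochore and cytokinesis proteins. They were chosen by symbol from textbook roles, and all 43 were found among the 45706 Ensembl gene IDs of the count table. They fall into 8 roles: 8 genes for cyclins, Cdk1 and mitotic entry, 6 for mitotic kinases and the chromosomal passenger complex, 5 for the spindle checkpoint, 2 for the anaphase-promoting complex, 2 for chromosome structure, 8 for the centromere and kinetochore, 6 for spindle motors and microtubule proteins, and 6 for the midzone and cytokinesis. RNA was sequenced from 16 libraries of mouse bone marrow in a series on loss of 1 copy of Gata2, a zinc finger transcription factor that blood stem cells need. At Day0 there were 2 libraries labelled WT and 3 labelled Gata2 (Day0_WT and Day0_Gata2), and at Day2 3 and 2 (Day2_WT and Day2_Gata2), all from LSK cells, which lack lineage markers, carry Sca-1 and Kit, and include blood stem cells. At Week2 the cells were marrow cells with CD45.2, a variant of the leukocyte protein CD45 that can tell donor from host, with 3 libraries per genotype (Week2_WT and Week2_Gata2). The series text speaks of few sorted LSK cells transplanted into irradiated wild-type recipients. The labels give only WT or Gata2 as genotype. They name no allele, strain or age, no agent between Day0 and Day2, and no library as coming from a recipient. The labels do not say whether replicates are different animals, so the p-values measure a spread that may be partly technical. The Y-linked gene Ddx3y was above 10 CPM in 13 libraries and not in 3 (Day0_WT replicate 2, Day0_Gata2 replicate 3 and Week2_Gata2 replicate 3), so in those groups the replicates differed in sex and were not all from 1 animal.

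A cell that has copied its DNA enters mitosis when cyclin A2 and the B-type cyclins activate Cdk1. Polo-like and Aurora kinases then help build the spindle, and the spindle checkpoint holds the anaphase-promoting complex in check until the kinetochore of every chromosome is attached. Transcripts of most of these genes accumulate late in the cycle, from promoters with a CHR element, the docking site of the MuvB complex that works with B-MYB and FOXM1, and with CCAAT boxes bound by NF-Y. In resting cells the same complex, joined to E2F4 and p130, keeps them low. Many blood stem cells rest outside the cycle while the progenitors they give rise to divide often.

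The 10 LSK libraries held 19.6 to 68.3 M counts and the 6 Week2 libraries 177 to 321 M counts. The lowest count of a member was 97, for Cdc25c in Day0_WT replicate 1. Levels below are CPM, counts scaled to a common library size, with TMM scaling over the 16 libraries. In LSK cells the libraries labelled Gata2 did not hold less Gata2 than WT ones: it stood at 428 and 328 CPM in Day0_WT and 605, 745 and 679.8 in Day0_Gata2, at 290.1, 261 and 258 in Day2_WT and 488 and 733 in Day2_Gata2 (log2 fold change 0.81, SE 0.20, adjusted p = 0.341 at Day0 and 1.18, SE 0.19, adjusted p = 0.207 at Day2). At Week2 it lay at 10.5, 16.1 and 12.5 in Week2_WT and 24.9, 10.6 and 9.83 in Week2_Gata2, which overlapped (0.35, SE 0.46, adjusted p = 1.0, and -0.30 without Week2_Gata2 replicate 1). The genotype names below are therefore those of the labels. Day0_WT replicate 1 stood apart: its log2 CPM correlated with replicate 2 at 0.878, and 9.33% of its counts lay on 4 genes that collect repeat reads, namely Lars2, Gm26917, Gm23935 and CT010467.1. The other 9 LSK libraries held 2.80% to 6.51%. That share did not overlap between Day0 (5.10% to 9.33%) and Day2 (2.80% to 4.39%), and was 0.734% to 0.898% at Week2. Sva, chosen after its values were seen, separated the other libraries by genotype label: it was at 0 CPM in Day0_WT replicate 2 and the 3 Day2_WT libraries, at 0.0155 to 0.193 in Week2_WT, at 1.10 to 3.96 in the libraries labelled Gata2, but at 2.51 in Day0_WT replicate 1. Of the LSK markers, Kit lay at 407 to 708 CPM in the LSK libraries and 20.9 to 67.9 at Week2. Ly6a, which encodes Sca-1, lay at 54.1 to 69.5 CPM at Day0 and 19.5 to 32.2 at Day2. At Week2 it lay at 8.14 to 65.6, which overlapped the LSK libraries, as did the levels of Cd48 and Slamf1. The summed level of the 8 LSK markers was 181 to 288 CPM at Week2, against 1499.5 to 2461 in LSK cells.

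Promoters of 35 of the 43 members were in the RefSeq table (GRCm38.p6), as 250 bases before and 50 after the start. The letters TTTGAA of the CHR element, searched on both strands, were present in 25 of the 35 (71.4%), against 18.1% of all 27025 promoters of the same length and 11.1% of 18 S phase promoters. CCAAT, on both strands, was present in 27 (77.1%), against 37.9% of all promoters and 66.7% of the S phase ones. Both together were in 22 (62.9%), against 7.1% and 11.1%. The E2F letters TTTGGCGC, TTTCGCGC or TTTCCCGC were in 1 member (2.9%), against 1.9% of all promoters and 38.9% of the S phase ones. TTTAAA, a variant of the CHR element that is its own reverse complement, was in 9 members (25.7%). It was in 13.2% of all promoters and 22.2% of the S phase ones. Of 87 promoters of other G2 and mitosis genes, 42.5% held TTTGAA, 58.6% CCAAT, 31.0% both of these, 13.8% the E2F letters and 13.8% TTTAAA. Matches of different motifs may overlap, and a match describes letters and not binding. Of 31 TTTGAA matches, 23 lay within 50 bases of the start. The promoters of 6 members are shown, chosen with their values known, because they take in genes that changed and genes that did not in the comparisons below. Each is written 5′ to 3′ on the gene's strand, with TTTGAA and CCAAT, or their reverse complements TTCAAA and ATTGG, in capitals.
Ccnb1 (chr13:100786437-100786736, minus strand): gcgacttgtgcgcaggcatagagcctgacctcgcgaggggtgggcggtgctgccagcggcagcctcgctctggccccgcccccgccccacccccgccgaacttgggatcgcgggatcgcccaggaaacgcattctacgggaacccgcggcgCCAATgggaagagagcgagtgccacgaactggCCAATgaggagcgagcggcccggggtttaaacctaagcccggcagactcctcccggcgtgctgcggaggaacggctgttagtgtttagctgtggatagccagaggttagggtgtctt
Cdk1 (chr10:69352863-69353162, minus strand): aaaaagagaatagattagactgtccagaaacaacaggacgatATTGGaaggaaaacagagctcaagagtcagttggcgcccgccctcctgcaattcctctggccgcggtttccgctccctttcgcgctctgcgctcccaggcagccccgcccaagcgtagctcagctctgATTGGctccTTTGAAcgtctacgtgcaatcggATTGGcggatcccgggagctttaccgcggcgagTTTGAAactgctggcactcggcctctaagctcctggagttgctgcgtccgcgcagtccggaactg
Plk1 (chr7:122159185-122159484, plus strand): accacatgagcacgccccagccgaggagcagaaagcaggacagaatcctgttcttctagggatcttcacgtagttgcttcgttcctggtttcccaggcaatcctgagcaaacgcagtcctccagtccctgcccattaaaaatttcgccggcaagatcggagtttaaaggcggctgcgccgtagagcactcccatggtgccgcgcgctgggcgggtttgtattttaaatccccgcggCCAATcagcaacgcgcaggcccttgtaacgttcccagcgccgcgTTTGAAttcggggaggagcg
Cdc20 (chr4:118437294-118437593, minus strand): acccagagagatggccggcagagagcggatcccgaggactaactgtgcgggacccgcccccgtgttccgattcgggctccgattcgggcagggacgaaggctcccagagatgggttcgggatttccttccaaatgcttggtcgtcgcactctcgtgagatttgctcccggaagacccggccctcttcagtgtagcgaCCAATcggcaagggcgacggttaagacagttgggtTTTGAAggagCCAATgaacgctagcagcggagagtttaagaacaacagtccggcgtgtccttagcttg
Mki67 (chr7:135716330-135716629, minus strand): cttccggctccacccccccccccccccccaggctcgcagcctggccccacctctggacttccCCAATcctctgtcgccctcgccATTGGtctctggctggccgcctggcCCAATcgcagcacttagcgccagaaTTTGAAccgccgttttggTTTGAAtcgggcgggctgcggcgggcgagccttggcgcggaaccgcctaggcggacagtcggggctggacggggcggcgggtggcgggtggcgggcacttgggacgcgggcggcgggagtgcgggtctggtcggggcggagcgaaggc
Cdc25b (chr2:131186698-131186997, plus strand): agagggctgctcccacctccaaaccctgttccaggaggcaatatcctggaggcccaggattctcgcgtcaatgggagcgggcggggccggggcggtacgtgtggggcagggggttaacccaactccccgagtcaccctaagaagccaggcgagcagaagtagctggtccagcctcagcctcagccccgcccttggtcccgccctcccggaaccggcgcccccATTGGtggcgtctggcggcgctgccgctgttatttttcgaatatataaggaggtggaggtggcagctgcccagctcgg

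Ccnb1, which moved most from Day0 to Day2 (below), held no TTTGAA and 2 CCAAT boxes, with TTTAAA at position -42 from the start. Cdk1, Plk1 and Cdc20 each held both motifs, and Plk1 had its TTTGAA after the start, at position 31. Mki67 held 2 TTTGAA, at positions -116 and -98, and was not called over the same interval. Cdc25b, the member that differed most between LSK and Week2 cells, held no TTTGAA and 1 CCAAT box. From Day0 to Day2, 17 of the 25 members with TTTGAA and 7 of the 10 without it were called higher in WT, and 7 of 25 and 2 of 10 in Gata2. Of all genes tested, 11.9% were called higher in WT and 4.48% in Gata2. The share among all genes with TTTGAA was not counted.

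**Figure D1:**
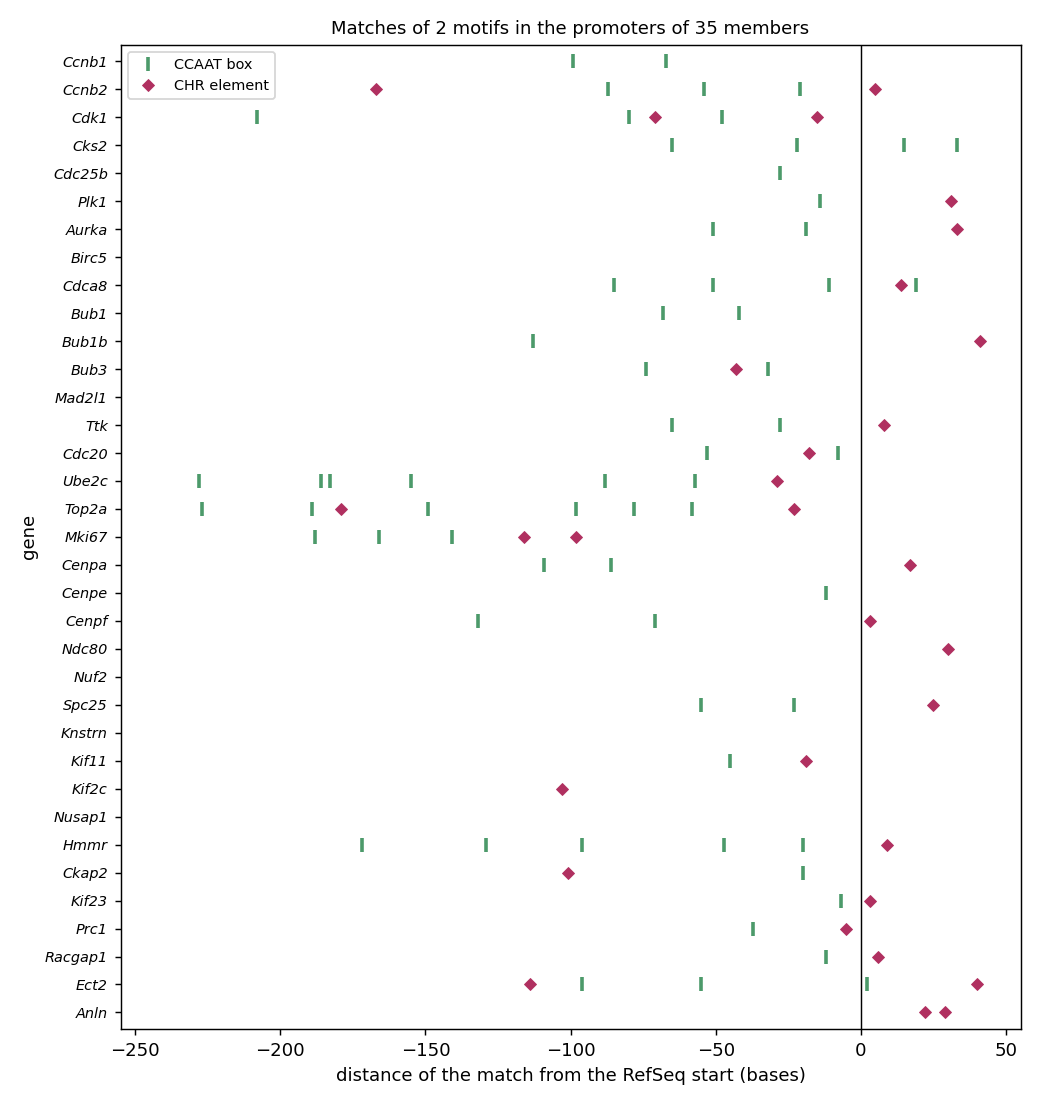
Position of each TTTGAA (CHR element, diamonds) and CCAAT (ticks) match, on either strand, in the promoters of 35 members, as distance in bases from the RefSeq start (x axis). The matches of the CHR element gather near the start, 23 of 31 within 50 bases, and 10 members have none.

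The summed level of the 43 members in LSK cells was lower at Day0 than at Day2 in both genotypes. It was 3919 and 5225 CPM in Day0_WT, 5957, 5241 and 4808 in Day0_Gata2, 7439, 7757 and 7227 in Day2_WT and 7737 and 7929.8 in Day2_Gata2. Every Day2 library lay above every Day0 library, and the Day2 libraries of the genotypes differed little beside that. At Week2 the sum was 8471, 5636 and 8122 CPM in Week2_WT and 9566, 9779 and 5934 in Week2_Gata2. In each of these groups 1 library lay below every Day2 library and the other 2 above them. The low libraries, at 5636 and 5934 CPM, also lay below Day0_Gata2 replicate 1 at 5957. In bulk libraries, a larger share of dividing cells and more of these transcripts per cell cannot be told apart. Per kilobase of exon, mean levels in Day2_WT ran from 6.27 CPM per kb for Cenpf, a large kinetochore protein, and 6.68 for Cdc25c, a Cdk1-activating phosphatase, to 189 for Cdc20, the activator of the anaphase-promoting complex, and 189 for Cks2, a small Cdk1-binding subunit.

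**Figure D2:**
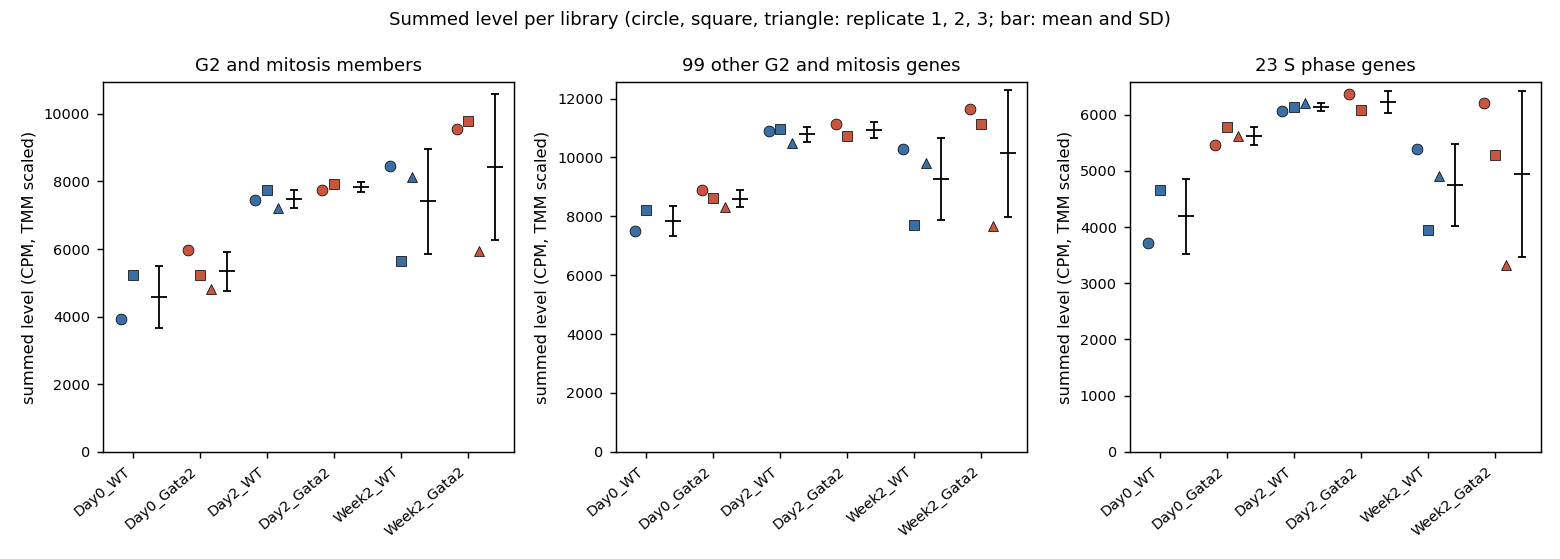
Summed level (CPM, TMM scaled, linear axes from 0) per library of the 43 members, of 99 other G2 and mitosis genes and of 23 S phase genes, by group. Points are libraries and bars show mean and SD. In the first panel the 5 Day2 libraries lie at 7227 to 7929.8 CPM, above the 5 Day0 libraries, and each Week2 group holds 1 library far below its other libraries.

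**Figure D3:**
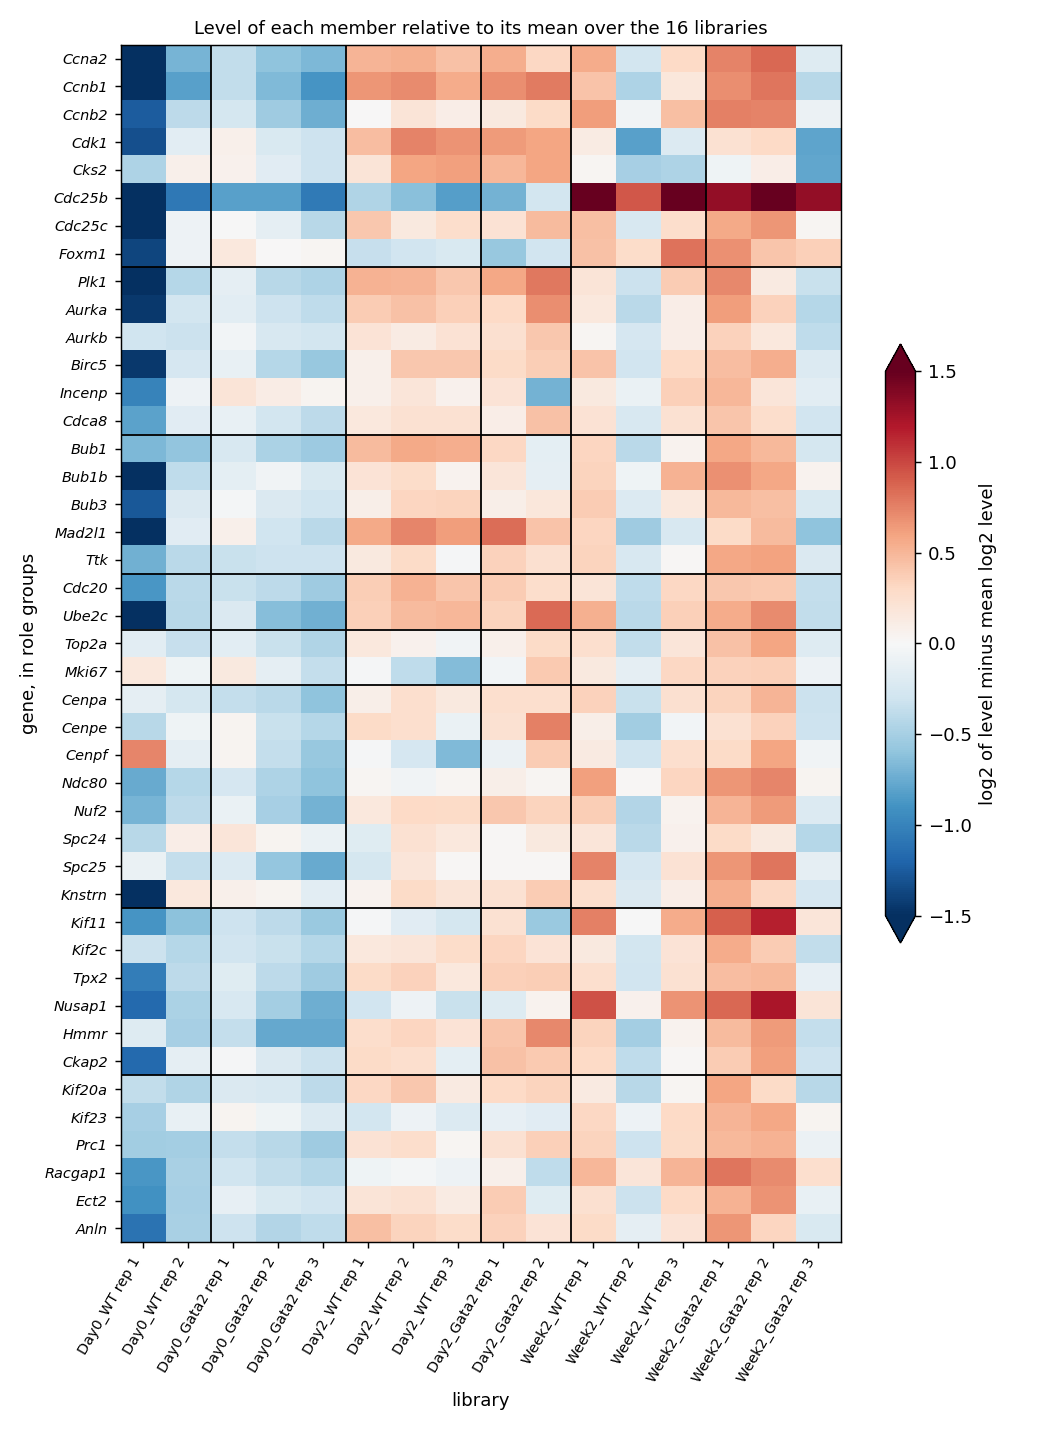
Level of each member (rows, in role groups) in each library (columns), as the log2 level minus the gene's mean log2 level over the 16 libraries, on a colour scale that ends at -1.5 and 1.5. Day0_WT replicate 1 is the lowest Day0 library for 31 members, and Cdc25b is far higher in all 6 Week2 libraries than in LSK libraries.

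From Day0 to Day2, 28 of the 43 members rose in WT LSK cells and none fell, at an adjusted p under 0.05 by edgeR's quasi-likelihood test with Benjamini-Hochberg adjustment over 19162 genes. Of all genes tested, 11.9% were called higher and 17.9% lower. The median log2 fold change was 0.68 for the members and -0.11 for all genes. In the libraries labelled Gata2, 12 members rose and none fell, where 4.48% of all genes were called higher and 4.82% lower. The median of the members was 0.60 there, and that of all genes -0.07. The levels of the Day2 and Day0 libraries did not overlap for 34 members higher at Day2 in WT and 33 in Gata2, against 25.3% and 25.9% of all genes, and for 1 member lower in Gata2, Foxm1, against 34.4%. The test of the difference between the genotypes' changes called 0 members and 0 genes, with 1984 genes at an unadjusted p under 0.05 by edgeR and 216 called by DESeq2, so the 28 and the 12 are not shown to differ. Its median over the members was -0.20. Upper quartile scaling moved the median of all genes in WT to -0.26 and that of the members to 0.52, and in Gata2 to -0.12 and 0.55.

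Both counts moved when a library was left out, and so did the share of all genes called, 29.9% in WT and 9.30% in Gata2 with every library. Without Day0_WT replicate 1 the WT comparison called 19 members (median 0.47) and 4593 genes in all, against 5720 with every library, and without Day0_WT replicate 2, 34 higher and 1 lower (median 1.04) and 57.1%. It called 12 without Day2_Gata2 replicate 1 (25.7% of all genes) or Day2_WT replicate 2 (16.7%), 13 without Day2_WT replicate 3 (17.5%) and 17 without Day0_Gata2 replicate 2 (21.7%). The Gata2 comparison called 27 higher and 1 lower without Day0_WT replicate 1 (24.3% of all genes) and 20 higher and 1 lower without Day0_WT replicate 2 (21.2%). It called 1 without Day2_Gata2 replicate 1 (2.29%) or 2 (3.69%), and 3 without Day0_Gata2 replicate 2 (3.70%) or 3 (4.11%). It called 8 without Day0_Gata2 replicate 1 (4.55%), and 7 without Day2_WT replicate 2 (6.91%) or 3 (7.60%). In WT, 10 members stayed called in each of the 10 fits that left out a library: Ccna2, Ccnb1, Cdk1, Bub1, Cdc20, Tpx2, Kif20a, Prc1, Ect2 and Anln. In Gata2, Hmmr did. How many of all genes stayed called in each of these fits was not counted, so these counts have no background beside them. With the share of counts on those 4 genes as a covariate, 0 members and 0.903% of all genes were called in WT. In Gata2, 8 members were then called higher and 1 lower, with 10.8% of all genes called. The members' median under this covariate was 0.34 in each genotype, against -0.21 in WT and -0.24 in Gata2 over all genes.

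**Figure D4:**
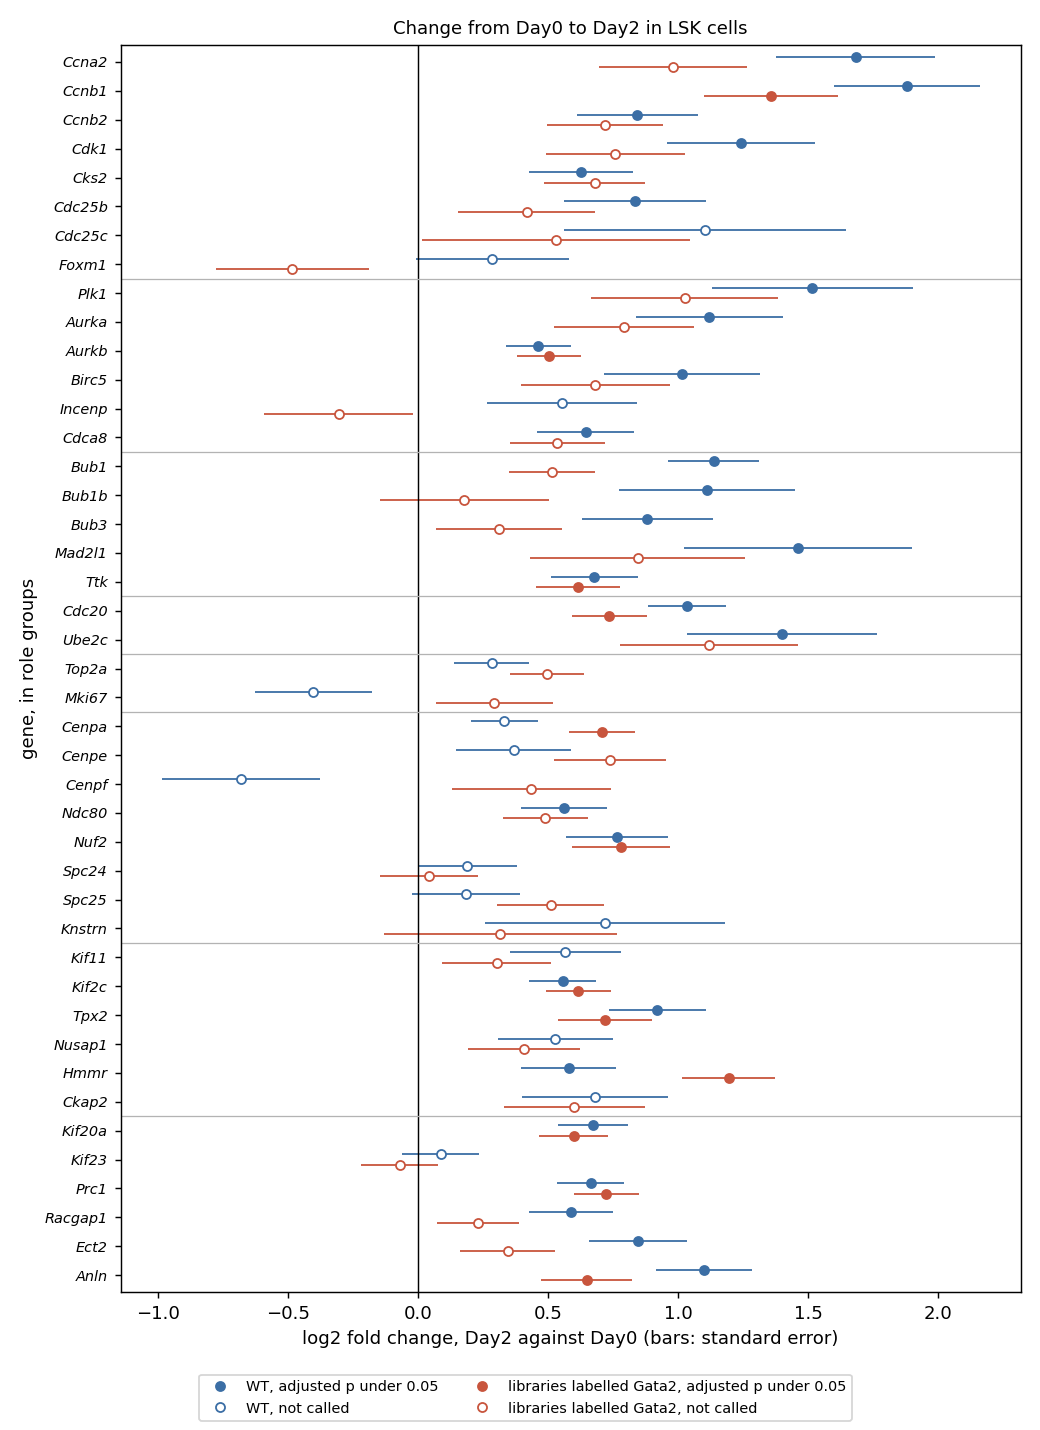
Log2 fold change of Day2 against Day0 (x axis, bars show the standard error) for each member in WT (blue) and in libraries labelled Gata2 (red). Filled points passed an adjusted p of 0.05. Of 43 members, 41 in WT and 40 in Gata2 lie to the right of 0, and Ccnb1 lies farthest right, at 1.88 and 1.36.

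Among the cyclins and entry regulators, 6 of 8 rose in WT and 1, Ccnb1, in Gata2. Ccnb1, the B-type cyclin that drives mitotic entry (ENSMUSG00000041431, chromosome 13, 100778650 to 100786570 of GRCm38), stood at 54.9 and 115 CPM in Day0_WT and 158, 128 and 110.1 in Day0_Gata2. At Day2 it stood at 321, 332 and 299 in Day2_WT and 329 and 348 in Day2_Gata2, above every Day0 library by a wide margin. It rose 3.68-fold in WT (log2 fold change 1.88, SE 0.28, adjusted p = 0.00197) and 2.56-fold in Gata2 (log2 fold change 1.36, SE 0.26, adjusted p = 0.0114). The Gata2 call stood in 6 of 10 fits that left out a library. Ccna2, the cyclin of S phase and G2, rose from 61.4 and 150.3 to 347, 353 and 331 CPM in WT (3.21-fold, adjusted p = 0.00474) and stood at 188, 159.9 and 153 and then 357 and 302 in Gata2 (1.97-fold, adjusted p = 0.0611). Its 5 Day2 libraries lay above its 5 Day0 libraries. Cdk1, the kinase those cyclins activate (chromosome 10, 69335146 to 69352938), rose from 65.7 and 146 to 226, 275 and 261 CPM in WT (2.36-fold, log2 fold change 1.24, SE 0.28, adjusted p = 0.0123). In Gata2 it stood at 173, 140.1 and 132 and then 254 and 247 CPM (1.69-fold, adjusted p = 0.111). These 3 were called in WT in each fit that left out a library.

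Ccnb2, a second B-type cyclin, Cks2 and Cdc25b, a phosphatase that activates Cdk1, rose 1.79-fold, 1.54-fold and 1.78-fold in WT, and were called in 6, 2 and 1 of the 10 such fits. Cdc25c, with the lowest counts of the set, had 4.51 and 25.7 CPM in Day0_WT and 35.95, 30.0 and 32.7 in Day2_WT, and was not called (adjusted p = 0.149). Foxm1 encodes the forkhead factor that activates genes of this class. It stood at 36.5 and 89.9 CPM in Day0_WT, 74.7, 78.2 and 81.0 in Day2_WT, 106, 95.4 and 96.7 in Day0_Gata2 and 64.3 and 77.9 in Day2_Gata2. Both Day2_Gata2 libraries lay below the 3 Day0_Gata2 ones (log2 fold change -0.48, SE 0.29, adjusted p = 0.353), the reverse of the other entry genes, and the WT value was 0.29 (adjusted p = 0.489).

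**Figure D5:**
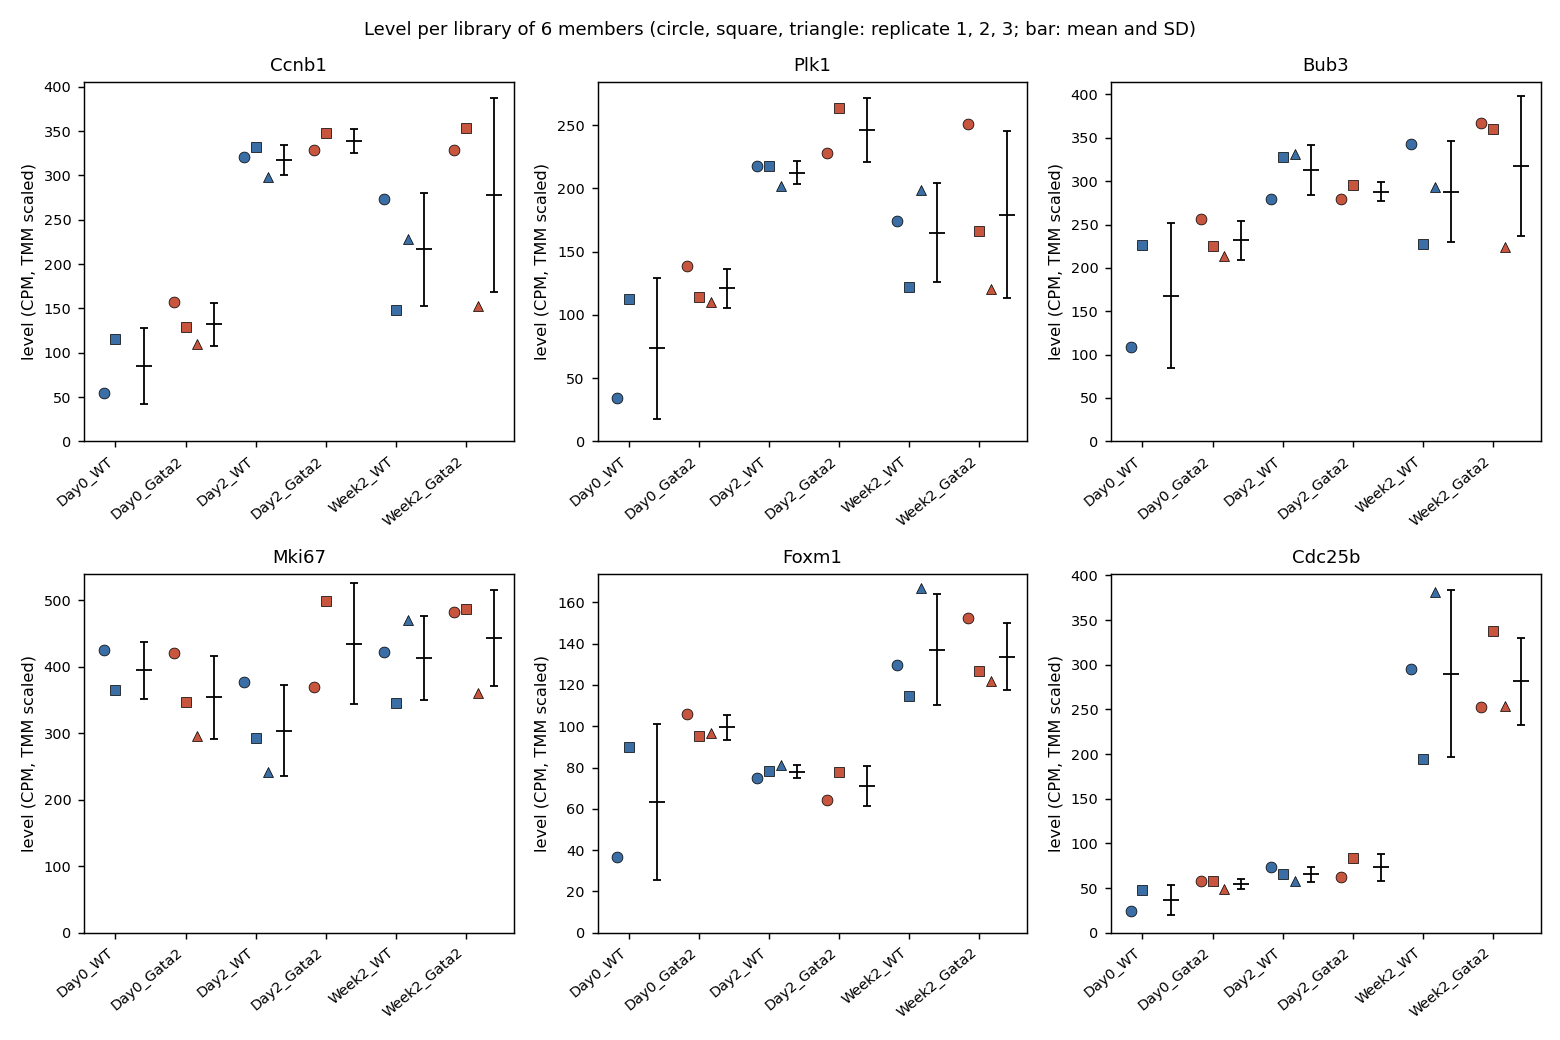
Level (CPM, TMM scaled, linear axes from 0) per library of 6 members by group, points for libraries, bars for mean and SD. Ccnb1 and Plk1 are higher at Day2 than at Day0 in every library, Mki67 overlaps and Foxm1 is lower at Day2 in Gata2, and Cdc25b is high at Week2 alone, at 194 to 381 CPM.

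Of the mitotic kinases and the chromosomal passenger complex, the 4-protein assembly of Aurora B, survivin, INCENP and borealin, 5 of 6 rose in WT and 1 in Gata2. Plk1, the polo-like kinase of entry and spindle assembly (chromosome 7, 122159439 to 122169873), had 34.2 and 113 CPM in Day0_WT and 218, 217 and 202 in Day2_WT. Replicate 2 lay within the range of Day0_Gata2, at 139, 114 and 110.1. Plk1 rose 2.86-fold in WT (log2 fold change 1.52, SE 0.39, adjusted p = 0.0184), a call absent in 1 of 10 fits that left out a library. In Gata2, where Day2 stood at 228 and 264, the difference was 2.03-fold (adjusted p = 0.110). Aurkb, the kinase of the passenger complex, had the smallest fold of the members called in each genotype. It rose from 165 and 162 to 233, 220.5 and 235 CPM in WT (1.38-fold, log2 fold change 0.46, SE 0.13, adjusted p = 0.0230) and from 197, 171 and 167 to 239 and 267 in Gata2 (1.42-fold, log2 fold change 0.50, SE 0.12, adjusted p = 0.0323). Aurka, the spindle pole kinase, Birc5 (survivin) and Cdca8 (borealin) rose 2.17-fold, 2.02-fold and 1.56-fold in WT. The calls of Aurkb, Birc5 and Cdca8 stood in 5, 4 and 3 of the 10 fits in WT. Incenp, the scaffold, was not called: it had 276, 261 and 248 CPM in Day0_Gata2 and 277 and 147 in Day2_Gata2, so that 1 library gave its negative value (-0.30, and 0.06 without Day2_Gata2 replicate 2).

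All 5 spindle checkpoint genes rose in WT, and Ttk, the MPS1 kinase, in Gata2 as well. Bub1, a checkpoint kinase, was close in the Day0_WT libraries, at 53.5 and 56.9 CPM, against 119, 127 and 125 in Day2_WT. It rose 2.20-fold (log2 fold change 1.14, SE 0.17, adjusted p = 0.00223) and kept its call in each fit that left out a library. In Gata2 it had 72.6, 61.4 and 58.5 CPM at Day0 and 106 and 77.3 at Day2, where the libraries lay far apart (1.43-fold, adjusted p = 0.0841). Bub3, which brings the checkpoint kinases to kinetochores, had 109 and 227 CPM in Day0_WT and 280.0, 328 and 331 in Day2_WT (1.84-fold, log2 fold change 0.88, SE 0.25, adjusted p = 0.0285). Its value in Gata2 was 0.31 (adjusted p = 0.490), and its WT call stood in 5 of 10 fits. Bub1b, Mad2l1 and Ttk rose 2.16-fold, 2.75-fold and 1.60-fold in WT and were called in 2, 3 and 8 of the 10 fits. Mad2l1, the MAD2 protein of the checkpoint complex, had 23.1 and 88.2 CPM in Day0_WT, levels far apart.

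Both genes of the anaphase-promoting complex rose in WT. Cdc20, the activator that the checkpoint holds back (chromosome 4, 118432901 to 118437352), had the lowest adjusted p of the set in WT. Its levels were 142 and 197 CPM in Day0_WT and 337, 374 and 346 in Day2_WT (2.05-fold, log2 fold change 1.03, SE 0.15, adjusted p = 0.00172), and 207, 199 and 180.5 in Day0_Gata2 and 339 and 312 in Day2_Gata2 (1.66-fold, log2 fold change 0.73, SE 0.14, adjusted p = 0.0130). It was called in all 10 of the fits that left out a library in WT and in 6 in Gata2. Ube2c, the ubiquitin-conjugating enzyme of that complex, rose 2.64-fold in WT (adjusted p = 0.0203, called in 8 of 10 fits) and differed 2.17-fold in Gata2 (adjusted p = 0.0732).

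The genes for chromosome structure did not pass the test in either genotype. Mki67, the Ki-67 protein that coats mitotic chromosomes and a common marker of cycling cells (chromosome 7, 135689784 to 135716361), had 425 and 365 CPM in Day0_WT and 377, 293 and 242 in Day2_WT. In Day0_Gata2 it had 421, 347 and 296 and in Day2_Gata2 370.3 and 499. The groups overlapped in both genotypes, with log2 fold changes of -0.40 (SE 0.22, adjusted p = 0.199) and 0.29 (SE 0.22, adjusted p = 0.480). Top2a, the topoisomerase that untangles sister chromatids, stood at 462 and 404 CPM in Day0_WT, 577, 537 and 496 in Day2_WT, 463, 407 and 377 in Day0_Gata2 and 542 and 630.2 in Day2_Gata2. Its Day2 libraries lay above its Day0 libraries without passing the test (adjusted p = 0.166 in WT and 0.0600 in Gata2).

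Of the 8 centromere and kinetochore genes 2 rose in WT, Nuf2 and Ndc80, and 2 in Gata2, Nuf2 and Cenpa. Nuf2 and Ndc80 encode partner subunits of the complex that grips microtubules, as do Spc24 and Spc25. Nuf2 rose from 43.2 and 53.5 to 78.5, 86.6 and 85.8 CPM in WT (1.70-fold, log2 fold change 0.77, SE 0.20, adjusted p = 0.0190) and from 65.3, 49.7 and 42.7 to 92.5 and 88.2 in Gata2 (1.72-fold, log2 fold change 0.78, SE 0.19, adjusted p = 0.0326). Ndc80 rose 1.47-fold in WT (called in 2 of 10 fits), and Nuf2 was called in 6 in WT and 4 in Gata2. Spc24 and Spc25 differed 1.14-fold and 1.14-fold in WT, with adjusted p = 0.477 and 0.533. Cenpa, the histone H3 variant that marks centromeres, rose from 183, 176 and 154 to 279 and 279 CPM in Gata2 (1.63-fold, log2 fold change 0.71, SE 0.13, adjusted p = 0.00842, called in 8 of 10 fits). In WT it stood at 214 and 194 and 248, 279 and 258 CPM (adjusted p = 0.0779). Cenpf ran lower in WT: it had 196 and 107 CPM in Day0_WT and 117, 99.1 and 74.4 in Day2_WT (log2 fold change -0.68, SE 0.30, adjusted p = 0.116), and the value was -0.18 without Day0_WT replicate 1, the highest library. Cenpe, a kinetochore motor, and Knstrn, the kinastrin spindle protein, were not called in either genotype.

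Of the spindle motors and microtubule proteins, 3 of 6 rose in each genotype, and they were the same 3: Kif2c, Tpx2 and Hmmr. Hmmr, a spindle pole protein, had a larger fold in Gata2 than in WT. It had 82.6, 62.3 and 62.3 CPM in Day0_Gata2 and 141 and 175 in Day2_Gata2 (2.29-fold, log2 fold change 1.19, SE 0.18, adjusted p = 0.00404), and 92.7 and 74.8 in Day0_WT and 128, 133 and 122 in Day2_WT (1.49-fold, log2 fold change 0.58, SE 0.18, adjusted p = 0.0412). The test of the difference between these changes gave 0.62 (SE 0.25, adjusted p = 0.466), and the WT call stood in 2 of 10 fits. Tpx2, which activates Aurora A on the spindle, rose 1.89-fold in WT and 1.64-fold in Gata2, and Kif2c, a kinesin that takes microtubules apart, 1.47-fold and 1.53-fold. Kif11, the motor that pushes spindle poles apart, Nusap1, a microtubule-bundling protein, and Ckap2 were not called, with folds of 1.48-fold, 1.44-fold and 1.60-fold in WT and 1.23-fold, 1.33-fold and 1.52-fold in Gata2. For Kif11 the Day2_Gata2 libraries lay at 260.3 and 151 CPM, on either side of Day2_WT at 186 to 219.

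In the midzone and cytokinesis group 5 of 6 rose in WT and 3 in Gata2. Prc1, which bundles midzone microtubules, rose from 115 and 116 to 192, 198 and 168 CPM in WT (1.58-fold, log2 fold change 0.66, SE 0.13, adjusted p = 0.00624) and from 129, 123 and 114 to 192 and 211 in Gata2 (1.65-fold, log2 fold change 0.72, SE 0.12, adjusted p = 0.00719). Its Day0 libraries, Day0_WT replicate 1 included, lay at 114 to 129 CPM. Anln, the anillin scaffold of the cleavage furrow, rose from 33.6 and 52.0 to 99.3, 91.9 and 88.0 CPM in WT (2.14-fold, log2 fold change 1.10, SE 0.18, adjusted p = 0.00331) and 1.57-fold in Gata2 (adjusted p = 0.0492, called in 2 of 10 fits). Kif20a, a midzone kinesin, rose 1.59-fold in WT and 1.51-fold in Gata2. Ect2, which activates RhoA at the furrow, and Racgap1, its partner, rose 1.80-fold and 1.50-fold in WT and differed 1.27-fold and 1.17-fold in Gata2 (adjusted p = 0.278 and 0.419). Kif23, the motor that works with Racgap1, had 87.5 and 114 CPM in Day0_WT and 102, 117 and 107 in Day2_WT, which overlapped (log2 fold change 0.09, SE 0.15, adjusted p = 0.690). Exons of 13 members, among them Kif20a, Prc1, Ube2c, Ccna2 and Cdc25c with the longest overlaps, share bases with another gene, so their counts may include reads of a neighbour.

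Genes outside the set also differed between Day0 and Day2. Of 99 other G2 and mitosis genes, 33 rose and 2 fell in WT (median 0.43) and 12 rose and 0 fell in Gata2 (0.36). Of all genes, 11.9% were called higher and 17.9% lower in WT, and 4.48% and 4.82% in Gata2. Ckap2l, a spindle protein, rose from 72.5 ± 21.6 (SD, n = 2) to 237 ± 25.9 CPM (SD, n = 3) in WT and from 87.0 ± 9.37 (SD, n = 3) to 267 ± 21.8 (SD, n = 2) in Gata2 (adjusted p = 6.73e-04 and 0.00105). Gtse1 rose as well, with log2 fold changes of 0.81 and 0.95. The 2 that fell in WT were Nfya, a subunit of the NF-Y factor that binds CCAAT (log2 fold change -1.73, SE 0.29, adjusted p = 0.00349), and Cit, the citron kinase of cytokinesis. Of 23 S phase genes, 11 rose and 1 fell in WT, and 3 rose and 2 fell in Gata2. Of 14 tested quiescence and CDK inhibitor genes, 2 rose and 4 fell in WT, and 0 rose and 1 fell in Gata2. Markers of other cells moved over the same interval. The sum of 4 megakaryocyte markers was 189 to 321 CPM at Day0 and 1542 to 2136 at Day2, that of 9 neutrophil markers 1729 to 7091 and 5605 to 8475, and that of 8 LSK markers 1794 to 2461 and 1499.5 to 1680.1. Flt3, an LSK marker of lymphoid-primed progenitors, was at 446 to 534 CPM at Day0 and 68.3 to 125 at Day2. The B cell and the T and NK cell marker sums at Day2 were 18.8 to 31.0 and 0.403 to 1.25 CPM. The part of these shifts, and of the repeat share, in the members' change was not tested further than the covariate above.

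At Day0, 0 members and 0 genes were called between the genotypes by edgeR (0% in each direction), with 2586 genes at an unadjusted p under 0.05 and 417 called by DESeq2. The log2 fold change was positive for 36 of 43 members, with a median of 0.28 against 0.02 over all genes. The levels did not overlap for 12 members higher in Day0_Gata2 (18.8% of all genes) and 1 lower, Cenpa (14.0%). The Day0_WT libraries were unlike each other. Day0_WT replicate 1 lay below replicate 2 for 34 members and below every other Day0 library for 31, whereas replicate 2 lay inside the range of Day0_Gata2 for 26. Plk1, for example, had 34.2 and 113 CPM in Day0_WT and 139, 114 and 110.1 in Day0_Gata2 (log2 fold change 0.70, SE 0.37, adjusted p = 0.414). Bub1b, the BUBR1 protein of the checkpoint, had 54.0 and 154 and 181, 192 and 170.3 CPM (0.79, SE 0.34, adjusted p = 0.360), and Ect2, of lowest p, 52.0 and 68.7 and 89.1, 83.1 and 79.6 (0.45, SE 0.19, adjusted p = 0.353). Both Ect2 libraries of Day0_WT lay below the 3 of Day0_Gata2. Without Day0_WT replicate 1 the median of the members was 0.02, with 23 of 43 positive. Without Day0_WT replicate 2 it was 0.69, against 0.21 for all genes, with 27 members called higher and 1 lower and 39.9% of all genes called. In the test of the difference between the genotypes' changes that fit called 22 members lower and 1 higher and 31.1% of all genes, with medians of -0.68 and -0.27. The sum of 9 neutrophil markers was 1729 CPM in Day0_WT replicate 1 and 4579 in replicate 2, and that of 6 monocyte and macrophage markers 1489 and 758. Their part in the members' levels was not tested.

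The members that ran against this, higher in Day0_WT replicate 1 than in replicate 2, were 9, and they were Cenpf (1.83 times replicate 2), Hmmr, Spc25, Mki67, Top2a, Cenpa, Kif2c, Kif20a and Aurkb. Knstrn and Cdc25c showed the other extreme, with 15.0 and 68.5 and 4.51 and 25.7 CPM in replicates 1 and 2.

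At Day2, 0 members and 0 genes were called between the genotypes by edgeR (0% in each direction), with 1070 genes at an unadjusted p under 0.05 and 144 called by DESeq2. The median log2 fold change of the members was 0.07, and 32 were positive. Levels did not overlap for 7 members higher in Day2_Gata2 (9.89% of all genes): Aurkb, Plk1, Cenpa, Nuf2, Tpx2, Hmmr and Ckap2. For Bub1 they did not overlap in the other direction (11.2%), with 119, 127 and 125 CPM in Day2_WT and 106 and 77.3 in Day2_Gata2 (log2 fold change -0.43, SE 0.17, adjusted p = 0.852). Bub1 had the lowest p of the set there. Mki67 came next, at 377, 293 and 242 and 370.3 and 499 CPM (0.52, SE 0.22, adjusted p = 0.883), and its groups overlapped. The Day2_Gata2 libraries differed between themselves for several members: replicate 2 was lower than replicate 1 for Bub1, Incenp, Kif11, Racgap1 and Ect2, and higher for Ube2c (216 and 308 CPM), Cenpe and Cenpf.

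At Week2, 0 members and 0 genes were called by edgeR (0% in each direction), with 87 genes at an unadjusted p under 0.05, none of them a member, and 1 called by DESeq2. All 43 members had a positive log2 fold change, from 0.05 for Cdc25b to 0.47 for Ccnb1, with a median of 0.30 against 0.00 over all genes. With upper quartile scaling 40 were positive, with a filter of 5 CPM 39 and with all 16 libraries in 1 fit 41. Without Week2_Gata2 replicate 1 or replicate 2, 36 were positive. Mean CPM, scaled over the 16 libraries, was lower in Week2_Gata2 than in Week2_WT for Cdc25b (281 and 290) and Foxm1 (134 and 137). Leaving out a library moved the members' median between 0.09, without Week2_Gata2 replicate 2, and 0.65, without Week2_WT replicate 1. The levels of the groups overlapped for every member, where 0.699% of all genes were higher and 0.885% lower without overlap. Within each group 1 library was low: Week2_WT replicate 2 was among the 2 lowest of the 6 libraries for 43 members, and Week2_Gata2 replicate 3, the 1 library of the 6 without Ddx3y, for 42. Week2_Gata2 replicates 1 and 2 were among the 2 highest for 37 and 39. Ccnb1 stood at 274, 148 and 229 CPM in Week2_WT and 328, 353 and 152 in Week2_Gata2 (SE 0.51, adjusted p = 1.0). Cdk1 stood at 179, 93.5 and 142 and 192, 202 and 94.6, and Top2a at 612, 400.1 and 585 and 699.8, 779 and 452 CPM. In each group the same library was lowest for all 3. Standard errors of the log2 fold change ran from 0.35 for Foxm1 to 0.51 for Ccnb1. The limma voom test with quality weights, which weights libraries unequally, called 38 members higher (median 0.76), among 12866 of 36485 genes it called in all. The sums of neutrophil markers in the 6 libraries ran from 21259 to 86162 CPM and those of erythroid markers from 156 to 4582 CPM, and their part in the members' levels was not tested. With sex as a covariate 0 members were called and the median was 0.60. The genotype difference at Week2 was not called different from that at Day0 for any member (median -0.10, 0 called by edgeR, 0% of all genes), with 1459 genes at an unadjusted p under 0.05 and 8 called by DESeq2. Without Day0_WT replicate 2 that test called 6 members lower and 11.1% of all genes.

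Against LSK cells at Day0, 19 members were called higher in Week2_WT and none lower, where 21.9% of all 31164 genes were higher and 11.6% lower. In Week2_Gata2 23 were called higher and none lower, where 32.6% were higher and 10.4% lower. The members' medians were 0.65 and 0.61, and those of all genes 0.95 and 1.22. The filter kept 31164 genes here and 19162 in the fit of the LSK libraries alone. Genes can thus have passed it only through the deeper Week2 libraries, where they are high. The values over all genes are therefore not a like yardstick for the members. Levels did not overlap for 23 members higher in Week2_WT (46.2% of all genes) and 18 in Week2_Gata2 (45.8%). Cell fraction, time and depth differ together here, as would any transplantation, and they cannot be told apart. With every library 33.5% of all genes were called in WT and 43.0% in Gata2. The WT count of members was 1 without either Day2_Gata2 library, where 29.5% of all genes were still called, and 2 without Day0_WT replicate 1 (13.5% of all genes). It was 11 without Day0_Gata2 replicate 1 or 2, Day2_WT replicate 1 or Week2_WT replicate 1 or 3, in fits that called 21.0% to 33.7% of all genes. The Gata2 count was 3 without Day2_Gata2 replicate 1 or 2, where 36.1% and 36.2% of all genes were called, 4 without Day0_Gata2 replicate 2 (6872 genes in all), and 8 without Day0_Gata2 replicate 1 (20.2%) or 3 (17.4%). It was 10 without Day2_WT replicate 1 (40.3%), 15 without Week2_Gata2 replicate 1 (48.2%) and 12 without replicate 2 (38.9%). With the repeat share as a covariate, the counts were 0 and 1, with 0.847% and 8.31% of all genes, and the medians -0.04 and 0.11. Cdc25b stood out. It had 24.4 and 48.2 CPM in Day0_WT and 57.9, 57.6 and 48.6 in Day0_Gata2, 57.4 to 84.1 at Day2, and 295, 194 and 381 in Week2_WT and 253, 338 and 253 in Week2_Gata2. It rose 7.97-fold in WT (log2 fold change 2.99, SE 0.33, adjusted p = 7.85e-06) and 5.14-fold in Gata2 (log2 fold change 2.36, SE 0.27, adjusted p = 9.23e-06), called in all 16 of the fits that left out a library in each genotype. Its close relative Cdc25c, in contrast, was at 22.9 to 43.0 CPM at Week2 and was not called (adjusted p = 0.0879 and 0.208).

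Kif11 and Nusap1, not called from Day0 to Day2, were called here in both genotypes. Kif11 had 121 and 146 CPM in Day0_WT and 376, 221 and 328 in Week2_WT (2.31-fold, log2 fold change 1.21, SE 0.29, adjusted p = 0.00746), and 2.33-fold in Gata2 (log2 fold change 1.22, SE 0.26, adjusted p = 0.00245). Nusap1 rose 2.62-fold and 2.46-fold, with adjusted p = 0.00450 and 0.00237, and Racgap1, called in WT at Day2, 2.10-fold and 1.96-fold. In WT the calls of Kif11 and Nusap1 stood in 13 and 13 of 16 fits that left out a library. Foxm1 was called in WT alone, 2.17-fold (adjusted p = 0.0103, called in 13 of 16 fits), against 1.34-fold in Gata2 (adjusted p = 0.162). The difference between these was -0.69 (SE 0.37, adjusted p = 0.876). Cdk1 and Cks2, high at Day2, were near their Day0 levels at Week2: Cdk1 had 226 to 275 CPM at Day2 and 93.5 to 202 at Week2, with adjusted p = 0.383 and 0.729 against Day0. Their Day2 and Week2 levels did not overlap, and Week2 was not tested against Day2. Mki67 had log2 fold changes of 0.07 and 0.32 against Day0 and was not called at any step.

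Of the 99 other G2 and mitosis genes, 24 were called higher and 10 lower in Week2_WT against Day0_WT, and 22 higher and 5 lower in Week2_Gata2. Of all genes tested, 21.9% were called higher and 11.6% lower in WT, and 32.6% and 10.4% in Gata2. The counts of this list were thus near or below those shares. Cdkn3, a phosphatase that acts on Cdk1, was higher in both (log2 fold change 1.97 and 2.08), and Wee1, the kinase that Cdc25 enzymes oppose, was lower in both (log2 fold change -0.76 in WT, and in Gata2 log2 fold change -1.23, SE 0.21, adjusted p = 5.27e-04). Of 23 S phase genes, 3 were called higher and 0 lower in WT, and 2 higher and 5 lower in Gata2.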

How the data were processed

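RNA was sequenced from 16 libraries in 6 groups, taken from the sample labels. The deposited table holds raw counts per Ensembl gene, which the authors made from reads trimmed and aligned to the mouse build mm10. The submitters' processing notes name Trimmomatic 0.38 and STAR 2.5.2b. How reads were counted, with which strand setting and annotation, is not given in the sources used here. The labels name a stranded kit and a low-input kit without saying which library had which. No row lacked a gene (0) and 0 columns went unused. Symbols came from GENCODE M21.

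Comparisons within LSK cells used edgeR 4.0.16 (R 4.3.3) with TMM scaling, filterByExpr and the quasi-likelihood test on the 10 LSK libraries, those within Week2 the 6 Week2 libraries, and those between them all 16. P-values were Benjamini-Hochberg adjusted over all genes tested, with a threshold of 0.05. The fit was tested on simulated data. Limma 3.58.1 voom and DESeq2 1.42.0 were among the alternatives. The members, gene lists and tests were chosen with earlier results of these data known. Named were the 6 members of lowest p and the 2 farthest on the other side in each comparison, and the anchors Ccnb1, Cdk1, Plk1, Aurkb, Cdc20, Bub3, Top2a, Mki67 and Cdc25b. Levels of any member, and 3 genes of lowest p per comparison from the other G2 and mitosis list, could be added. Promoters came from RefSeq, 1 per gene.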

Additional observations from a re-analysis of the deposited data

How the results depend on the processing

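In this paragraph each count of members called is given with the share of all genes called in the same fit. From Day0 to Day2 in WT (28, 29.9%) it was 3 with the 2 groups alone (6.81%) or with voom (7.07%), 13 without a low count filter (16.9%), 18 with all 16 libraries (20.6%) or upper quartile scaling (29.4%), and 0 with the repeat share as a covariate (0.903%, median 0.34). In Gata2 (12, 9.30%) it was 21 by DESeq2 (18.1%), 28 by voom (21.5%), 27 with the groups alone (31.9%), and 2 with all 16 libraries (3.89%) or no filter (4.09%). Under the repeat covariate it was 9 there (10.8%), with a median of 0.34. With that covariate the Day0 genotype median was 0.0056 and that of the difference between the changes 0.090. The Week2 genotype count was 38 by voom (35.3%, median 0.76). Week2 against Day0 in WT (19, 33.5%) gave 11 with the groups alone (28.9%), 2 by voom (30.0%), 6 without a filter (20.2%), 12 with a sex covariate (45.1%) and 0 with the repeat covariate (0.847%, median -0.036). In Gata2 (23, 43.0%) it gave 4 with the groups alone (44.9%), 39 by voom (65.9%), 6 without a filter (27.1%) and 1 with the repeat covariate (8.31%, median 0.11).

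Of 50 turned signs of single genes, 19 came from leaving out a library, 17 from the repeat covariate and 14 from other settings. In log2 fold change the repeat covariate gave Cenpf 0.22 and Hmmr 0.0028 between genotypes at Day0. From Day0 to Day2 it gave Bub3 -0.23, Mki67 0.42 and Cenpf 0.89 in WT, and Bub3 -0.26 in Gata2. For Week2 against Day0 in WT it gave Ccna2 -0.46, Ccnb1 -0.036, Cdk1 -1.52, Plk1 -1.24, Bub3 -1.03, Cdc20 -0.070 and Cenpf 2.12. In Gata2 it gave Cdk1 -1.20, Plk1 -1.17 and Bub3 -0.80, and Bub1b 0.075 in the genotype difference. Mki67 was -0.11 in Week2_WT against Day0_WT without a filter and with a sex covariate (-0.107). In Week2_Gata2 against Day0_Gata2, Cdk1 was -0.040 with the groups alone and -0.087 without a filter. Cks2 there was 0.042 by DESeq2 and RLE scaling, 0.020 with a filter of 5 CPM, 0.19 by voom and 0.076 by upper quartile, and Spc24 0.099, 0.099, 0.075, 0.086 and 0.13 under the same. The cause of these shifts was not tested.

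The deviations of same-numbered libraries from their group means correlated at 0.05 and -0.03 at Day0 and at -0.07 and -0.08 at Day2. At Week2 the correlations were 0.63, -0.74 and 0.38. So few pairs cannot decide whether the numbers pair the libraries. The replicate block gave 16 members in WT (14.3% of all genes) and 3 in Gata2 (3.89%) from Day0 to Day2.

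Leaving out a library gave 0 to 28 called members between genotypes at Day0 (median 0.023 to 0.69), 12 to 35 from Day0 to Day2 in WT (median 0.47 to 1.04) and 1 to 28 in Gata2, and 0 to 23 for the difference (median -0.68 to 0.073). For Week2 against Day0 it gave 1 to 26 in WT (median 0.45 to 1.10), 3 to 27 in Gata2, and 0 to 6 for the genotype difference (median -0.41 to 0.17). These ranges are given without the share of all genes called, which also moved with the library left out. They therefore do not show a change particular to the members. The highest counts between genotypes at Day0, from Day0 to Day2 in WT and for both differences came without Day0_WT replicate 2. So did the highest count for Week2 against Day0 in WT. That fit left 1 Day0_WT library. Single values ranged over the fits that left out a library as follows. Incenp ran from -0.71 to 0.10 between genotypes at Day2 and from -0.91 to 0.056 from Day0 to Day2 in Gata2, and Gata2 from -0.30 to 0.68 at Week2. In Week2_WT against Day0_WT, Cdk1 ran from -0.087 to 1.08, Cks2 from -0.37 to 0.19, Mki67 from -0.14 to 0.20 and Cenpf from -0.68 to 0.18. In Gata2, Cdk1 ran from -0.11 to 0.41, Cks2 from -0.33 to 0.15, Aurkb from -0.0097 to 0.43 and Spc24 from -0.27 to 0.17.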
